A study of Mus musculus with 21 samples.

Results

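The control cecum of the series was described from the 6 libraries labelled 0_BP, out of 21 libraries in all, with no comparison of diets. Every mouse of the series was a C57BL/6 mouse that received the Total Western Diet, a rodent diet made to resemble human Western intake, from 3 weeks of age for 6 weeks. The controls then had the same diet with 0% broccoli powder for 3 more weeks, so the Western diet is shared by all libraries and no standard diet group was analysed here. Messenger RNA was sequenced from the cecum, and each library carries its own animal number in the labels (8, 13, 14, 15, 16 and 17, called replicates 1 to 6 here). Neither the sex nor the cage is given in the labels used, and the sampled piece of the cecal wall is not described.

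The cecum is the blind pouch where the small intestine opens into the large intestine, and its microbes ferment what the small intestine leaves. Its wall is lined by a crypt epithelium of absorptive, goblet, endocrine and tuft cells that are renewed from stem cells at the crypt base. Under it lie connective tissue with immune cells, blood and lymph vessels, and muscle layers with an enteric nervous system. Absorptive cells of the large bowel exchange sodium, chloride and bicarbonate and take up short-chain fatty acids, and goblet cells secrete the mucus that keeps microbes from the surface. The valve to the ileum, the last stretch of the small intestine, opens beside it, and mesenteric fat is attached to its outer face.

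The libraries held between 28514263 and 42687431 counts, with the fewest in replicate 6. Levels of 1 gene between libraries are given as CPM, counts scaled by the library total and its TMM factor. Levels of different genes are compared as TPM, counts per kilobase of annotated exon scaled to the same sum in each library. At least 1 CPM in all 6 libraries was reached by 13115 genes, of which 12985 were protein coding. Mean levels of at least 100 TPM were reached by 653 nuclear genes and of at least 1000 TPM by 22.

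Replicates 5 and 6 stood apart from the rest. The first principal component of log2 CPM held 42.9% of the variance and separated replicate 5 from the other 5, and the second held 22.8% and separated replicate 6. In replicate 5 markers of the small intestine and of Paneth cells were high, as described below with each result. The cecal marker Car1 was at its lowest of the 6 libraries there (5616 TPM). Of 14 listed genes of large bowel absorptive cells, 10 were lowest in replicate 5 and 2 were highest there, Aqp4 among them. The mean log2 CPM of that list was lowest in replicate 3 (8.73, against 8.74 in replicate 5), while its summed CPM was lowest in replicate 5. Of all genes averaging 1 CPM or more, 15.1%, 15.5%, 14.5%, 10.9%, 20.6% and 23.4% were highest in replicates 1 to 6 in turn. Shares of all genes lowest in a library, or with it among their 2 highest, were not counted. Such counts for lists therefore have no background here or below. In replicate 6 genes with under 1 kb of exon lay 0.14 above their median of the 6 libraries on the log2 CPM scale (median of 156 genes) and genes over 8 kb lay 0.065 below it (2315 genes). The other 5 libraries stayed between -0.045 and 0.029 for both classes. Y-linked Ddx3y, an RNA helicase gene, was counted in all 6 libraries, between 28.5 and 73.3 CPM with a median of 68.7.

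The table has gaps that bound what can be read from it. B2m, the light chain of MHC class I, which nearly every cell makes, is listed at 0 in all 21 libraries, and so are the clock gene Per3, the plasma cell gene Mzb1 and the endocrine regulator Neurod1. Such a 0 is a listing and not a measured absence. Gapdh, a glycolytic enzyme with many near-identical copies in the genome, had a mean of only 15.4 TPM. Genes with near-identical relatives, such as defensins, globins, the Gsdmc genes and Reg3 genes, are uncertain to that extent, and the counting tool is not given in the sources used here.

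The most abundant named nuclear messages were those of absorptive epithelium, and 4 of the 5 protein-coding genes with the highest means belong to the list of large bowel absorptive genes. Car1 (chromosome 3 from 14766216 to 14808368, minus strand), the cytosolic carbonic anhydrase of large bowel surface cells, had the highest mean, 7157 ± 2015 TPM (SD, n = 6). It lay between 5616 and 11120.5 TPM with a median of 6544, with the highest value in replicate 6. Muc3, a membrane mucin of the brush border, followed at 4348 ± 1618 TPM and lay between 2473 and 6870.4 TPM with a median of 4015. The level of Muc3 is uncertain, because its model in GENCODE release 21 (chromosome 5 from 137134922 to 137149322, minus strand, GRCm38) has only 1943 bases of exon, and RefSeq places its start upstream, with a promoter window from 137165997 to 137166296.

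Lypd8 (chromosome 11 from 58379043 to 58390728, plus strand), a secreted protein of colonic epithelium that binds flagellated bacteria, had a mean of 3819 ± 684 TPM, and its libraries lay between 3075 and 4896 TPM with a median of 3719. Cyp2c55 (chromosome 19 from 39007019 to 39042693, plus strand), a cytochrome P450 of the large intestine, had 3387 ± 618 TPM. Its lowest library was replicate 5 at 2221 TPM, and the other 5 lay between 3368 and 4024 TPM. Ceacam1, an adhesion molecule of epithelial surfaces, had 3024 ± 353 TPM. Car1 was above Lypd8, and Lypd8 above Ceacam1, in 6 of 6 libraries, whereas Muc3 was above Lypd8 in only 3 of 6.

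Cytoskeletal, translational and sulphation genes came next. Actb, cytoplasmic actin, had 2593 ± 419 TPM and Actg1, its close relative, 1392 ± 470.0. The actin-severing protein Dstn stood at 1431 ± 158 TPM, and the translation elongation factor Eef1a1 at 1674 ± 263. Papss2, which makes the sulphate donor used to sulphate mucins, had 1610.3 ± 232 TPM, with 1148 in replicate 5 and values between 1625 and 1761 in the others. Pigr, the receptor that carries dimeric IgA across the epithelium, had 1390.4 ± 280.4 TPM and lay between 1103 and 1864 TPM with a median of 1338. Also among the 25 nuclear protein-coding genes of highest mean were the membrane protein gene Emp1 (1765 ± 275), the gasdermin genes Gsdmc4 (1607 ± 165) and Gsdmc2 (1077 ± 134), whose reads can be shared, and the epithelial gene Phgr1 (1351 ± 333). Myl9, the smooth muscle myosin light chain at 900.0 ± 291 TPM, was the only gene of the smooth muscle list among the 25 highest nuclear protein-coding means.

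**Figure D1:**
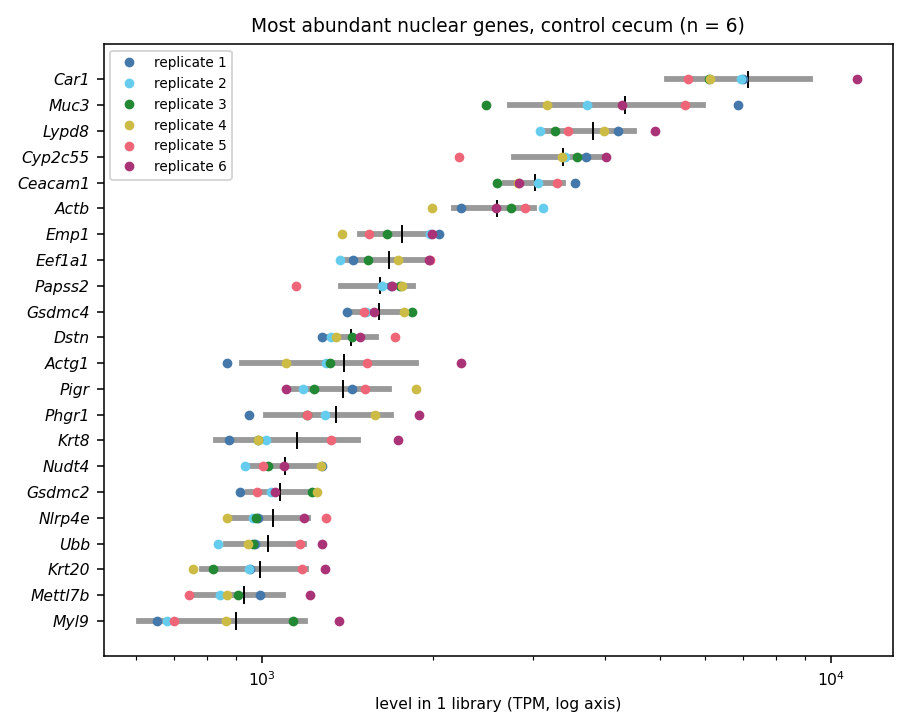
Levels of the most abundant named nuclear protein-coding genes in each control library, in TPM on a log axis. Points are the 6 libraries, grey bars the mean ± SD and ticks the mean; Car1 lies highest in replicate 6, and Cyp2c55 and Papss2 lie lowest in replicate 5.

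Mitochondrially encoded genes took 22.6% to 29.1% of the counts of a library (median 26.7%) and 55.6% to 63.6% of its TPM, so nuclear TPM values share the remainder. The lowest share of counts was in replicate 5 and the highest in replicate 2. The cytochrome oxidase subunit gene mt-Co1 had the highest mean and lay between 119458 and 147708 TPM with a median of 141571, followed by mt-Co2 (95432 ± 4614 TPM) and the ATP synthase subunit gene mt-Atp6 (90166 ± 8478). The complex I gene mt-Nd3 had the lowest mean of the 13, 4558 ± 663 TPM. The 10 most abundant nuclear genes held 4.16% ± 0.312 (SD, n = 6) of all counts and the top 100 held 12.7% ± 0.451.

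The markers of the labelled tissue were present in every library. In the list of general epithelial genes, the adhesion molecule Epcam lay between 613 and 861 TPM with a median of 658, the cadherin Cdh1 between 468 and 617 TPM with a median of 495 and villin, Vil1, of the brush border between 218 and 315 TPM with a median of 247. In the list of 14 large bowel absorptive genes, the median of the mean levels was 661 TPM. Its members include the water channel Aqp8 (671 ± 245 TPM), guanylin, Guca2a (651 ± 189), and the chloride-bicarbonate exchanger Slc26a3 (261 ± 44.2). Of these 14 genes, 10 had their lowest CPM in replicate 5 and 2 their highest, and the list mean was lowest in replicate 3.

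Some small intestinal genes were counted in every library and others almost only in replicate 5. The median of the mean levels of the 15 listed genes was 3.93 TPM. Alpi, intestinal alkaline phosphatase, lay between 38.1 and 70.1 CPM with a median of 56.5, and Slc10a2, the ileal bile acid importer, between 58.3 and 183 CPM with a median of 78.6, so both were counted in every library. Apoa1, the apolipoprotein of enterocytes, and Fabp6, the ileal bile acid binding protein, were above 5 CPM in replicate 5 alone. Gata4, a transcription factor of the proximal small intestine, and Lct, lactase, had means of 0.112 and 0.104 TPM. In bulk tissue, fewer cells of a type and less RNA per cell cannot be told apart, here and in every lineage below.

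Goblet cell genes had a median level of 113 TPM over the 11 listed. Zg16, a lectin of the mucus layer that binds Gram-positive bacteria, lay between 564 and 1311 TPM with a median of 848. Muc2, the gel-forming mucin, had 3865 CPM in replicate 5 and 689 to 1314 CPM in the others. Spink4, Fcgbp and Clca1, secreted goblet cell products, had mean levels of 371, 228 and 175 TPM, and the trefoil peptide Tff3 had 108 ± 17.5 TPM. In 8 of the 11 goblet cell genes the highest library was replicate 5, and in 7 the lowest was replicate 4.

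Genes of rare epithelial cells were lower, with a median of 3.44 TPM for the endocrine list. Chgb and Chga, granins of endocrine granules, had 39 ± 8.67 and 10.9 ± 2.07 TPM. The hormone genes were Sst (10.6 ± 2.29), Gcg (6.45 ± 2.56), Nts (4.75 ± 1.15) and Pyy (2.14 ± 1.11). Of 12 endocrine genes, 7 had a mean of at least 1 CPM, and Neurod1 is listed at 0. Tuft cell genes had a median of 1.0 TPM, led by the prostaglandin synthase Ptgs1 (19.5 ± 4.0), with the tuft cell kinase Dclk1 at 4.62 ± 0.65. The crypt base receptor Lgr5 had 6.58 ± 1.18 TPM and lay between 22.7 and 40.4 CPM with a median of 31.5, and the proliferation marker Mki67 had 28.9 ± 8.58 TPM. Olfm4, a stem cell marker of the small intestine, was counted at 50.3 CPM in replicate 5, and the other 5 libraries held 0 to 0.102 CPM, where 3 counts in a library correspond to 0.0672 to 0.101 CPM.

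Genes of the muscle layers had a median level of 190.3 TPM and those of enteric neurons 6.05 TPM. Among smooth muscle genes, Tagln, an actin-bundling protein, lay between 291 and 736 TPM with a median of 354, the myosin heavy chain Myh11 between 190.4 and 383 TPM with a median of 245 and enteric actin, Actg2, between 113 and 317 TPM with a median of 155. In 9 of the 12 smooth muscle genes the highest library was replicate 6 and in the other 3 it was replicate 3, while 11 were lowest in replicate 5. The list mean spanned 0.97 on the log2 CPM scale, or 0.74 without replicate 5 and 0.76 without replicate 6. Among neuronal genes the tubulin Tubb3 had 17.4 ± 6.42 TPM, the peptide gene Vip 8.2 ± 2.1, and Nos1, the nitric oxide synthase of inhibitory neurons, 6.47 ± 2.15. Of 13 neuronal genes, 7 were highest in replicate 3 and 4 in replicate 6, and 8 were lowest in replicate 1. The pacemaker genes Ano1 and Kit had 14.2 ± 2.97 and 11 ± 2.66 TPM.

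Stromal genes spanned 0.74 by list mean on the log2 CPM scale, or 0.45 without replicate 5. Of the 11 fibroblast genes, 7 were lowest in replicate 2, and 10 had replicate 5 among their 2 highest libraries. The fibroblast gene Dpt had 68.7 ± 25.1 TPM, the collagen gene Col1a1 20.3 ± 6.89, and the BMP antagonist Grem1 83.3 CPM in replicate 5 against 25.5 to 34.3 in the others. For 10 blood endothelial genes the list mean spanned 0.26 on the log2 CPM scale between libraries, with Pecam1 at 19.7 ± 2.28 TPM. Lyve1, a marker of lymphatic endothelium, had 16.9 ± 3.28 TPM.

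Among immune cells the plasma cell list had a median level of 5.26 TPM and the macrophage list 4.82 TPM. The kappa constant region gene Igkc lay between 76.3 and 337 CPM with a median of 158. The IgA heavy chain gene Igha lay between 83.2 and 245 CPM with a median of 129, and Jchain, which joins IgA into dimers, between 40.6 and 137 CPM with a median of 87.1. For all 3 genes replicate 5 was highest and replicate 6 lowest. Macrophage genes included the complement genes C1qa (40.2 ± 7.31 TPM) and C1qb (22.6 ± 4.2) and the phagocytic receptor Mertk (91.8 ± 11.1). T cell receptor constant gene Trac had 2.87 ± 0.659 TPM and the B cell receptor component Cd79a 1.79 ± 0.745. The median over 10 B cell genes was 0.373 TPM and over 14 T cell genes 1.0 TPM. All 5 dendritic cell genes and all 3 B cell genes averaging 1 CPM or more were lowest in replicate 6, and the share of all genes lowest there was not counted.

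Adipocyte genes were counted in every library. All 9 had a mean of at least 1 CPM, among them Car3 (between 47.1 and 209.9 CPM with a median of 144), Cidec, a lipid droplet protein, and Adipoq, the hormone adiponectin (between 5.44 and 36.3 CPM with a median of 20.1). Replicate 3 was the lowest library for 7 of the 9, and without it the range of the list mean was 0.87 in place of 1.97 on the log2 CPM scale. Lep, the leptin gene, lay between 5.14 and 20.03 CPM with a median of 10.8. Of 9 pancreatic acinar genes 4 are listed at 0, and only Cela1 (20.8 ± 2.27 TPM) passed 1 CPM. Of 5 listed liver genes, 1 averaged 1 CPM or more, with a mean of 12.2 TPM. The other 4 had means below 1 TPM, among them albumin, Alb, the defining liver gene, with at most 0.102 CPM. The muscle creatine kinase Ckm lay between 3.85 and 8.69 CPM with a median of 5.52.

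**Figure D2:**
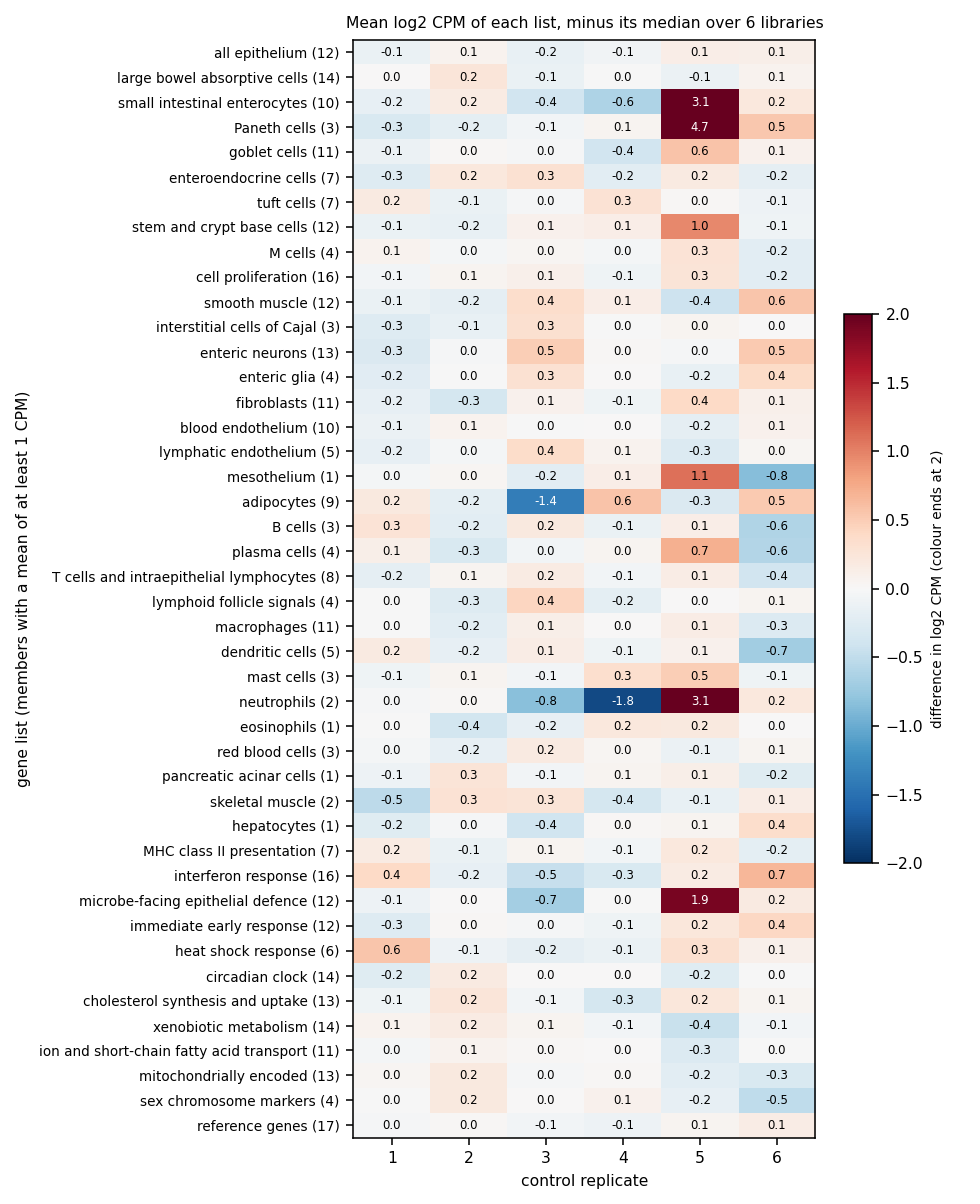
Mean log2 CPM of 44 gene lists in each control library, minus the median of the 6 libraries for that list; rows are lists with the number of members that had a mean of at least 1 CPM, and columns are replicates. Replicate 5 holds the high values for the small intestinal, Paneth cell and neutrophil lists, and replicate 3 the low value for adipocytes. The neutrophil row rests on 2 of 6 listed genes, of which 0 averaged 1 CPM or more without replicate 5.

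Within families, genes were ordered by their mean level per length over the 6 libraries, and neighbours were then compared in the same libraries, so the direction of each step was set by that order. Of 93 neighbour pairs in 12 families, 0 (0.00%) passed an adjusted p under 0.05 in the exact paired permutation test (two-sided, Benjamini-Hochberg over all pairs). In 52 pairs the order held in 6 of 6 libraries, each with an unadjusted p of 0.03125, the smallest that 6 libraries can give, and an adjusted p of 0.0559. At least 59 pairs at that smallest p would be needed for 1 to pass, so the count of 0 does not say which steps exceed the spread, and the ratios below are given with their SD as a description. With the longest transcript in place of the exon union as the length, the mean order of 17 pairs turned.

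By exon union, Muc3 and Muc13 had the highest means of the mucins, and Krt8 that of the keratins. The length of Muc3 is uncertain, as described above. Muc13, a membrane mucin, lay between 644 and 1056 TPM with a median of 834, below Muc3 in 6 of 6 libraries. Muc2 was below Muc13 in 5 of 6 and above it in replicate 5, and with the longest transcript as length the mean order of the pair turned. Muc1, Muc5ac, Muc5b, Muc16 and Muc20 had means below 1 TPM, and Muc15 is listed at 0. Krt8 (1153 ± 321 TPM), Krt20 (991 ± 205) and Krt19 (894 ± 178), the filaments of simple and surface epithelium, came close to each other, with Krt8 above Krt20 in 5 of 6 libraries and Krt20 above Krt19 in 5 of 6. Krt18, the partner of Krt8, had 129 ± 51.2 TPM and was below Krt19 in 6 of 6, by a mean log2 ratio of 2.84 ± 0.28 (SD).

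Tight junction claudins ran from Cldn3 (571 ± 100.1 TPM) and Cldn7 (412 ± 63.1) to the endothelial Cldn5 (14.3 ± 4.25). Cldn3 was above Cldn7 in 6 of 6 libraries by exon union, but not by longest transcript. Cldn4, a sealing claudin, lay between 106 and 392 CPM with a median of 213, highest in replicate 6. Cldn2, which forms cation pores, had 161 CPM in replicate 5 and 28.7 to 46.8 in the others, so its place beside Cldn12 turned between libraries. Among water channels Aqp8 was above Aqp1 in 6 of 6 libraries, by a mean log2 ratio of 4.10 ± 0.64. Aqp4, a basolateral channel, had 214 CPM in replicate 5 against 10.7 to 32 in the others.

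Carbonic anhydrases, which interconvert carbon dioxide and bicarbonate, kept their first steps in every library. Car1 was above the cytosolic Car2 (729.7 ± 99.5 TPM) by a mean log2 ratio of 3.27 ± 0.39, and Car2 above the membrane-bound Car4 (128 ± 25.5) by 2.52 ± 0.26, both in 6 of 6 libraries. Car4, Car12 and Car3 did not hold 1 order. Car3 is also an adipocyte gene and was lowest in replicate 3.

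Gut transcription factors had a median level of 53.8 TPM. Klf4, a factor of differentiated epithelium, and Hnf4a, the enterocyte nuclear receptor, had 652 ± 76.4 and 597 ± 85.3 TPM and did not hold 1 order. Hnf4a was above the caudal factor Cdx2 (369.9 ± 52.7) in 6 of 6 libraries. Gata4 was near 0, and Gata5 had 19.5 CPM in replicate 5 and 1.88 to 4.97 in the others. Atoh1, which sets the secretory fate, had 43.4 ± 10.5 TPM.

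Hox genes, which mark position along the body axis, were led by Hoxb6, Hoxb9 and Hoxa7. Hoxb6 had 369.6 ± 44.4 TPM and was above Hoxb9 (91.5 ± 9.31) in 6 of 6 libraries with a mean log2 ratio of 2.01 ± 0.10. Hoxa7 led its set with 82.4 ± 9.07 TPM, above Hoxa9 (49.3 ± 10.03) in 6 of 6. Among the most posterior genes, Hoxa13, Hoxb13 and Hoxd13 had means of 0.411, 0.00434 and 0.0381 TPM. Hoxa4, Hoxa5, Hoxa6 and Hoxd4 are listed at 0, so the order inside the clusters has gaps.

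Ligand-activated receptors spanned 0.21 by list mean on the log2 CPM scale, with and without replicate 5. The ion exchangers spanned 0.15, or 0.059 without replicate 5. Of the receptors 0 of 15 were in the most variable 10% of genes described below. Vdr, the vitamin D receptor, had 243 ± 32.4 TPM, the mineralocorticoid receptor Nr3c2 211 ± 17.9, Pparg 176 ± 26.5 and the bile acid receptor Nr1h4 130.4 ± 24.6. Ahr, which senses planar aromatic ligands, had 8.66 ± 1.17 TPM, and its targets Cyp1a1 and Ahrr had means of 0.465 and 0.504 TPM. Among exchangers Slc26a2, a sulphate carrier, and Slc26a3 did not hold 1 order, and the sodium-hydrogen exchanger Slc9a2 (134 ± 18.5) was above Slc9a3 (63.4 ± 24.6) in 6 of 6. Slc9a3 was lowest in replicate 5, 62.1 CPM against 133 to 229 in the others.

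Sensors of microbial products had a median of 1.88 TPM in the Toll-like receptor list. Tlr1, a receptor for bacterial lipopeptides, had 92.2 ± 5.43 TPM and was above Tlr2 (30.5 ± 9.1) in 6 of 6 libraries, and Tlr3 (25.3 ± 4.43) was above Tlr4 (11.1 ± 3.0) in 6 of 6. Gpr35 and the long-chain fatty acid receptor Ffar4 had 22.1 ± 2.61 and 20.2 ± 11 TPM. The short-chain fatty acid receptors Ffar2 and Ffar3 had 3.28 ± 1.04 and 1.49 ± 0.42 TPM, while the fatty acid transporter Slc16a1 had 496 ± 87.2.

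**Figure D3:**
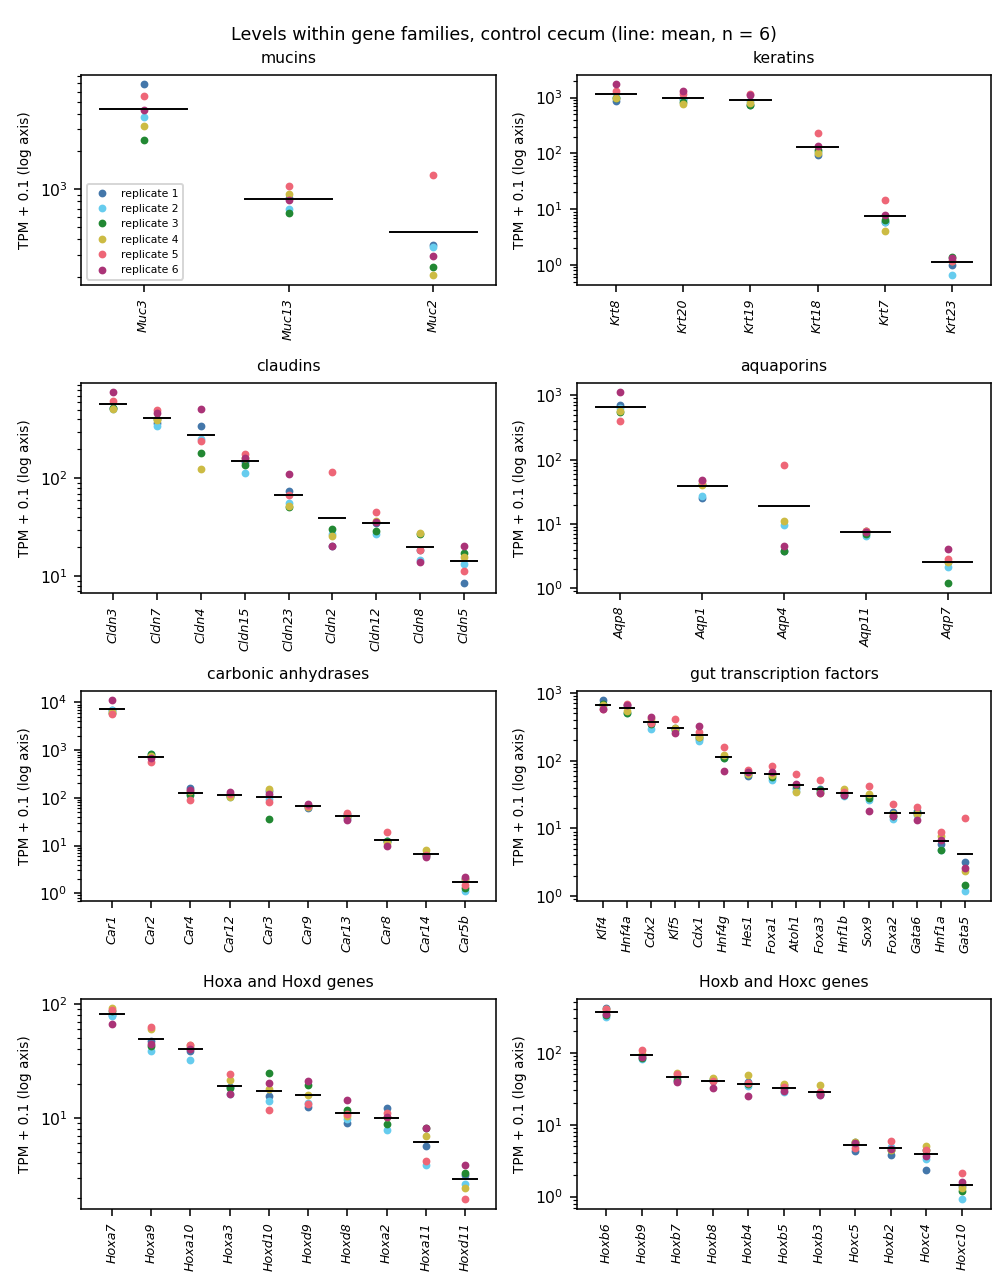
Levels of family members with a mean of at least 1 TPM, as TPM plus 0.1 on log axes; points are the 6 libraries and lines the means, with members in order of mean. Neighbours such as Krt8 and Krt20 overlap, while Car1 lies above Car2 in all 6 libraries.

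Most genes differed little between the 6 mice, and the genes that differed most did so through 1 mouse. Over 13777 genes averaging 1 CPM or more, the median SD of log2 CPM was 0.21, and the most variable 1378 genes (10%) lay at or above 0.42. These are called the most variable 10% below. An SD over 1 was reached by 115 genes and over 2 by 31. Of the genes with an SD over 1, 99 were highest in replicate 5. Without replicate 5 the number with an SD over 1 was 26. The highest library was 1.46 times the lowest for the median gene, on the CPM scale. Of the most variable 10%, 33.9% had their highest library in replicate 5 and 20.8% in replicate 6, against 20.6% and 23.4% of all genes.

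Lineage lists took unequal shares of the most variable 10%. Of 10 small intestinal enterocyte genes averaging 1 CPM or more, 7 were in it, and of 3 Paneth cell genes 3. Without replicate 5 the most variable 10% was redrawn over 13712 genes (1372 called), and the counts were 4 of 8 and 1 of 2. The members no longer counted had averaged 1 CPM or more only through replicate 5, where they were high. The range of the list mean went from 3.76 to 0.83 on the log2 CPM scale for the enterocyte list and from 5.01 to 0.85 for the Paneth cell list. Counts above the background in both sets were found in 27 of the 44 lists, several of them with few measured members. In such short lists 1 gene is enough, as for tuft cells (1 of 7, and 1). Among the 27 were adipocytes (7 of 9, and 7 without replicate 5), the interferon response (10 of 16, and 9), the immediate early response (6 of 12, and 5), T cells (4 of 8, and 6) and enteric neurons (5 of 13, and 6). The circadian clock list (5 of 14, and 5), smooth muscle (4 of 12, and 3) and fibroblasts (3 of 11, and 3) were among them as well. So were large bowel absorptive cells (5 of 14, and 3) and goblet cells (4 of 11, and 2). In the general epithelial list and in the reference genes 0 of 12 and 0 of 17 were in it. Both counts were also 0 without replicate 5.

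**Figure D4:**
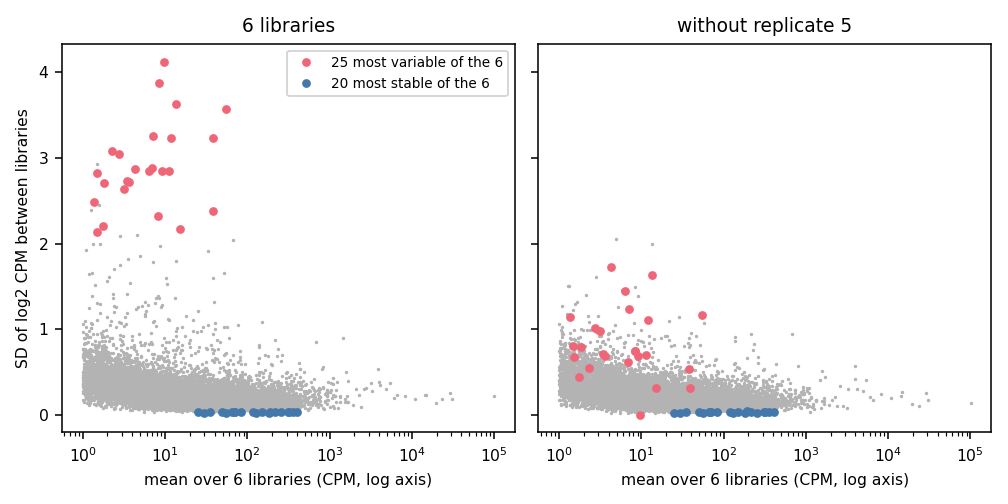
SD of log2 CPM between libraries against mean CPM (log axis) for genes averaging 1 CPM or more, with all 6 libraries (left) and without replicate 5 (right). The 25 most variable genes of the 6 (red) drop towards the other genes once replicate 5 is left out, and the 20 most stable (blue) stay at the lower edge in both panels.

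All 25 named genes with the highest SD had their highest library in replicate 5. Without it, 22 of the 25 had an SD at or above the redrawn bound of the most variable 10%. That bound was drawn over genes averaging 1 CPM or more without replicate 5. Some of the 25, such as Fgf15, Abcg5, Abcg8 and Sis, lay below that level there, where few counts alone can give a high SD. Only 1 of the 25 was among the 25 most variable genes without replicate 5. Fgf15 (chromosome 7 from 144896531 to 144900953, plus strand), the hormone that ileal cells release in response to bile acids, held 58.5 CPM in replicate 5 and 0 counts in the other 5. Apoa1 held 324 CPM against 0.256 to 3.0, and Fabp6 64.8 against 0.281 to 1.21. Genes of small intestinal absorption among the 25 included the cholesterol importer Npc1l1 (41.1 against 0.0716 to 0.976 CPM), its export partners Abcg5 (16 against 0 to 0.202) and Abcg8 (17.8 against 0.0281 to 0.435), the amino acid carrier Slc6a19 (44.6 against 0.435 to 1.66) and sucrase-isomaltase, Sis (21 against 0.0716 to 0.399).

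Antimicrobial genes were among them too. Of 12 genes of epithelial defence averaging 1 CPM or more, 7 were in the most variable 10%, or 3 of 9 without replicate 5. The lectins Reg3b and Reg3g, which bind bacteria and can share reads, held 80.1 and 69.5 CPM in replicate 5, with highest values of 0.939 and 0.996 elsewhere. Lysozyme of Paneth cells, Lyz1, held 80.3 against 1.62 to 2.83, and the defensin Defa24 13.6 against at most 0.0673. Ly6g, used as a neutrophil marker, held 23.2 CPM in replicate 5 and at most 0.976 elsewhere. Of the other neutrophil genes, Csf3r, the G-CSF receptor, held 2.37 against 0.716 to 1.05 CPM, while S100a8 and S100a9 stayed under 0.5 CPM in all 6 libraries. Duox2, an epithelial source of hydrogen peroxide, and the inducible nitric oxide synthase Nos2 were also highest there, at 214 against 29.6 to 69.6 CPM and 8.46 against 0.167 to 0.358 CPM. Whether tissue of the ileum was in the sample of this mouse was not tested.

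**Figure D5:**
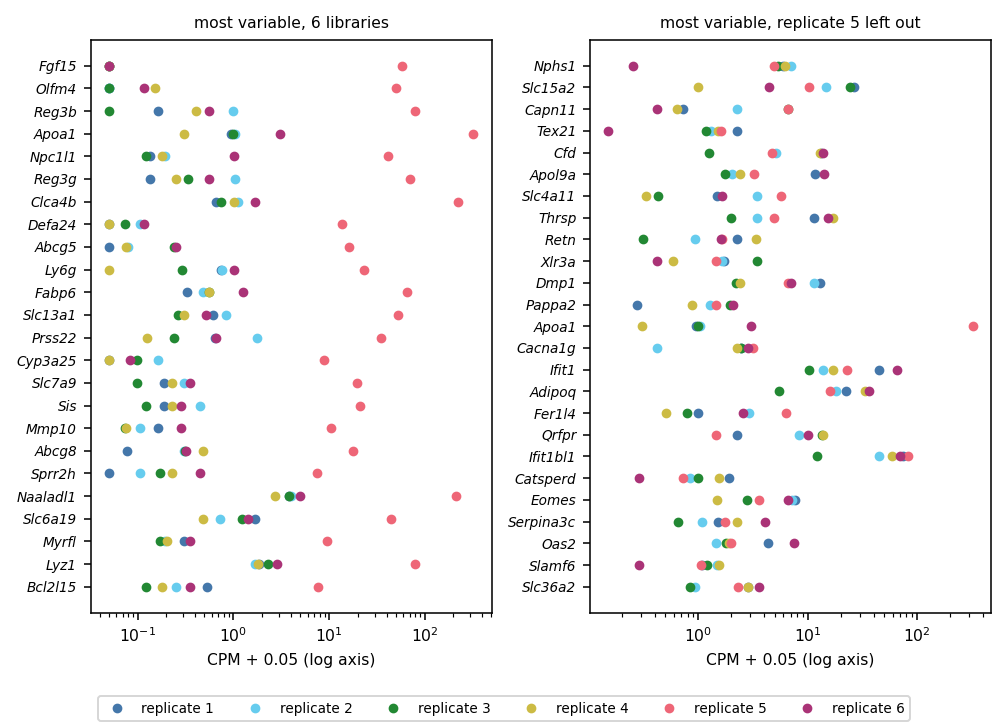
CPM plus 0.05 (log axis) in each control library for 24 of the 25 genes with the highest SD over the 6 libraries (left) and for the 25 over the 5 libraries without replicate 5 (right). On the left replicate 5 is the highest library for each gene, and on the right the highest library differs from gene to gene.

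Other genes varied in the remaining mice. Of the 20 named genes whose SD stayed highest whichever library was left out, 16 were highest in replicate 5. The genes named next were among the 25 most variable without replicate 5, and Nphs1 and Dmp1 were not among those 20. Nphs1 (chromosome 7 from 30458315 to 30487223, plus strand), which encodes nephrin, had 0.202 CPM in replicate 6 and 4.84 to 7.0 in the others. Slc15a2, a peptide carrier, had 0.947 CPM in replicate 4, 4.41 in replicate 6 and 26.4 in replicate 1. The calpain gene Capn11 held 6.54 and 6.56 CPM in replicates 3 and 5 and at most 2.19 in the rest. Qrfpr, a neuropeptide receptor, was low in replicates 1 and 5 (2.22 and 1.41 CPM) and between 8.23 and 13.9 CPM in the others. Dmp1, a matrix protein gene, held 12.9 and 11.4 CPM in replicates 1 and 2 and 2.17 and 2.38 in replicates 3 and 4.

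Fat cell genes were among these as well. Cfd, the complement factor D that adipocytes secrete, had 1.19 CPM in replicate 3, 4.7 and 5.12 in replicates 5 and 2, and 12.9 to 13.8 in replicates 4, 1 and 6. Thrsp, a regulator of lipogenesis, had 1.96 CPM in replicate 3 and 17 in replicate 4. The part of attached fat in these values was not tested.

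A set of interferon-stimulated genes, which cells switch on after sensing viruses or interferon, was high in the same mice. The list mean spanned 1.12 on the log2 CPM scale, or 0.86 without replicate 6. The list of 17 had 16 genes averaging 1 CPM or more, and 10 of them were in the most variable 10%, or 9 without replicate 5. Ifit1, which binds foreign RNA, held 44.4 and 65.8 CPM in replicates 1 and 6 and 10.3 to 22.6 in the other 4. Oasl2 held 59.2 and 70.2 CPM in the same mice and 20.7 to 26.8 in the others. Rsad2, an antiviral enzyme, held 18 and 26.1 against 5.25 to 10.03, and the ubiquitin-like Isg15 7.02 and 7.74 against 1.91 to 2.73. Replicates 1 and 6 were the highest pair for 8 of the 16 genes, namely Isg15, Ifit1, Ifit3, Oasl2, Irf7, Rsad2, Ifi44 and Xaf1. The share of all genes with that highest pair was not counted. Usp18, a negative regulator of interferon signalling, had an SD of 0.18, and the chemokine Cxcl9 was highest in replicate 5 (7.99 CPM). Cxcl10 is listed at 0.

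Promoters of 3 of these genes are shown because they carry a motif that interferon-regulated factors bind, the interferon-stimulated response element. It was searched as GAAA, any 2 bases and GAAA on both strands, in windows of 250 bases before to 50 bases after each start site, from RefSeq on GRCm38.p6. It was found in 1131 of 32851 windows (3.44%). Of the 17 genes 13 had a window, and 8 of these held it (Bst2, Cxcl10, Gbp2, Gbp3, Ifit1, Ifit3, Isg15 and Rsad2). The windows of Cxcl9, Ifi44, Irf7, Oasl2 and Xaf1 did not hold it. Ifi44, Irf7, Oasl2 and Xaf1 belong to the 8 genes highest in replicates 1 and 6, whereas Bst2, Cxcl10, Gbp2 and Gbp3 do not. Capitals mark the motif or its reverse complement (TTTC, any 2 bases and TTTC), and each sequence is on the strand of its gene, 5′ to 3′. The windows lie at chr19:34640639-34640938 on the plus strand for Ifit1, at chr4:156200769-156201068 on the minus strand for Isg15 and at chr12:26456403-26456702 on the minus strand for Rsad2.
Ifit1: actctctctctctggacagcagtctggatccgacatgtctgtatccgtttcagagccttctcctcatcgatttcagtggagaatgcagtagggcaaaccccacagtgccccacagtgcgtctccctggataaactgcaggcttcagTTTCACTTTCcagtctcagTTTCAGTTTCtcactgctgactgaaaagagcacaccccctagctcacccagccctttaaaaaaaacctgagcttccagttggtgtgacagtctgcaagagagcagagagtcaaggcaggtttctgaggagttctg
Isg15: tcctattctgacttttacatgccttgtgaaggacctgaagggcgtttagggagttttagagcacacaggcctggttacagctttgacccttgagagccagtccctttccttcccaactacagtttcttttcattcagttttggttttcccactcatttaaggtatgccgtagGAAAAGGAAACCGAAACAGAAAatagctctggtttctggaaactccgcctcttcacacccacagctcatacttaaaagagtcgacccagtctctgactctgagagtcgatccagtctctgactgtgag
Rsad2: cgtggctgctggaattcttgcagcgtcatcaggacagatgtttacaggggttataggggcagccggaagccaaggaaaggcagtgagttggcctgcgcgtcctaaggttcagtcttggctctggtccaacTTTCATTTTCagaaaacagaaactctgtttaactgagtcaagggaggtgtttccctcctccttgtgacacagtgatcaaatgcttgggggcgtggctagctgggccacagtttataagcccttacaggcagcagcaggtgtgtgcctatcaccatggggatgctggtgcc
In Ifit1 the matches begin 104 and 85 bases before the start site on the opposite strand, in Isg15 they begin 78, 72 and 66 bases before it and overlap, and in Rsad2 1 match begins 120 bases before it on the opposite strand. A match is a description of the sequence, and binding was not measured.

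Acute response and rhythm genes also differed by mouse. Egr1, an immediate early factor, had 79.7 CPM in replicate 1 and 171 to 324 in the others, and Atf3, a stress factor, had 57.7 and 61.2 CPM in replicates 1 and 6 and 19.1 to 42.2 elsewhere. The heat shock genes Hspa1a and Hspa1b, near-identical copies, were highest in replicate 1, at 25.8 against 9.2 to 16.3 CPM and 51.1 against 19.9 to 31.7 CPM. Dbp, an output gene of the circadian clock, lay between 4.04 and 19.6 CPM with a median of 9.84, and the clock repressor Nr1d1 between 24.8 and 82.6 CPM with a median of 51.9. Both were lowest in replicate 1 and highest in replicate 2, while Clock itself had an SD of 0.067. Time of day at collection is not given in the sources used here.

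Metabolic lists spanned less than the interferon list did. The cholesterol synthesis list spanned 0.59 on the log2 CPM scale between libraries, or 0.31 without replicate 4, with 1 of 13 genes in the most variable 10% and 10 of 13 lowest in that library. Drug metabolism genes spanned 0.61, or 0.22 without replicate 5, in which 10 of 14 were lowest. Ion and short-chain fatty acid transport genes spanned 0.34 with all libraries and 0.11 without replicate 5.

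The steadiest genes, the 20 of lowest SD at a mean of at least 20 CPM, included genes of signalling, trafficking and the cytoskeleton. Tln1 (chromosome 4 from 43531519 to 43562691, minus strand), talin, which ties integrins to actin, had an SD of 0.016 on the log2 CPM scale, and lay between 54.4 and 56.3 CPM with a median of 55.6. That SD is 1.12% of its level, less than the 2.19% that counting error alone gives. Clcn4, a chloride-proton exchanger, lay between 125 and 130.4 CPM with a median of 129.6 (SD 0.022), Pafah1b1, a regulator of dynein, between 179 and 187 CPM with a median of 181 (SD 0.024) and the GTPase Cdc42 between 401 and 423 CPM with a median of 405 (SD 0.029). Others of the 20 were the late endosomal GTPase Rab7, the adaptor Ywhab, the integrin chain Itgb1 and the citrate cleaving enzyme Acly. Counting error alone gives a coefficient of variation of 0.808% to 3.25% for the 20, and 5 of them had an SD below their own counting error. The choice depends on the scaling: with library totals in place of TMM 0 of the 20 stayed among the 20 steadiest, and with the DESeq2 size factors 18 did.

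Genes in common use for normalization were steady to different degrees. Among 17 with a mean of at least 1 CPM, low SDs were those of Hprt (0.091), Gusb (0.10), Eef2 (0.11), Ywhaz (0.12) and Tbp (0.12), against the median of 0.21 over all genes. Actb had 0.28, Rplp0 0.27 and Pgk1 0.31, all above that median. Hprt lay between 44.7 and 53.2 CPM with a median of 50.01, and Pgk1 between 43.1 and 77.2 CPM with a median of 47.6. Of the 17, 10 were highest in replicate 6, in which 23.4% of all genes were highest.

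The 15 libraries of the broccoli diets, which took no part in the choice, were used to ask whether the same genes vary or hold there, each around the mean of its own diet and with no diet compared with another. All 25 of the most variable genes were in the upper 10% of SD in those libraries (background 10%), with a median SD of 2.69 on the log2 CPM scale. Some of the 25, such as Fgf15, Abcg5, Abcg8 and Sis, averaged 1 CPM or more in the controls only through replicate 5. The background covers all genes averaging 1 CPM or more, and no share for genes that passed through 1 library was counted. Of the 20 steadiest, 11 were in the lowest 10% (background 9.99%), with a median SD of 0.089 against 0.17 over all genes. The 20 were drawn from genes of at least 20 CPM, while both backgrounds cover genes averaging 1 CPM or more. No share at a matched level was counted. Ywhab (0.046) and Clcn4 (0.057) were steady in both sets, whereas Acly had an SD of 0.19 there. Tln1 had 0.12 and was outside the lowest 10%. Of the 25 genes most variable without replicate 5, 22 were in the upper 10% of the other libraries, Cfd (2.13) and Ifit1 (0.82) among them. Nphs1, which was lowest in replicate 6, was also among them (0.46), and the other 3 genes lay between the percentiles 88.4 and 89.6.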

How the data were processed

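Messenger RNA of 21 mouse cecum libraries was sequenced after a stranded, ligation-based library preparation, per the labels' protocols, and reads were placed on mm10, per the submitters' processing notes. No source used here gives the aligner, the counter, its annotation or its strand setting. The authors deposited raw counts per gene for 25361 Ensembl identifiers, of which 25268 were found in GENCODE release 21 for the mouse (GRCm38) and 93 were not. All columns matched a sample.

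The 6 libraries labelled 0_BP were scaled with TMM (edgeR 4.0.16, R 4.3.3), and log2 CPM was taken with a prior count of 2. TPM used the union of annotated exons as length. The spread of a gene is its SD of log2 CPM over the 6, for genes averaging 1 CPM or more. Neighbours in family order with a mean of at least 1 TPM were compared by an exact paired sign-flip permutation test after adding 0.1 TPM. A library was called far from the rest where its gap to the nearest other library passed Dixon's critical value for 6 libraries, 0.625. The spread measure was tested on simulated data. No pair of the 6 libraries agreed within sampling noise, so all 6 were counted. The labels name an animal per library, and the p-values of the sign-flip test come from ratios within these animals. The order of the pairs was set by the same 6 libraries. A pair with all 6 in 1 direction gets 0.03125 whatever its SD.

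Named genes were the 25 nuclear protein-coding genes of highest mean TPM, the 13 mitochondrial ones, the 25 of highest SD, the 20 whose SD stayed highest with any library left out, the 20 of lowest SD at 20 CPM or more, the top members of 44 lists by level and spread, and the members of 12 families. Predicted and clone genes were counted but not named. The members and lists were chosen with earlier results of these data known. Alternatives were scaling by library totals or DESeq2 1.42.0 size factors, prior counts, filters, gene lengths and leaving out libraries. Figures were drawn with matplotlib 3.10.9. Muc4, Muc6 and Xist were not analysed here, and some other genes that the rules name are not reported, in the figures too.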

Additional observations from a re-analysis of the deposited data

Results flagged for a closer look

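In 36 of 225 values tested over the 6 libraries, 1 library lay apart from the other 5 by Dixon's test at the 95% level, which flags about 1 in 20 such groups by chance. The genes tested include those named for their high SD over the same libraries, so the share is not to be read against that rate. Replicate 5 was the library in 30 cases and replicate 6 in 6. By list mean on the log2 CPM scale, replicate 5 was high for small intestinal enterocytes (5.48), Paneth cells (4.61), stem and crypt base cells (5.15) and epithelial defence (6.15). These lists had 10, 3, 12 and 12 members averaging 1 CPM or more, and 8, 2, 11 and 9 without replicate 5. The members lost, Olfm4 of the stem list among them, had passed that level only through replicate 5. By summed CPM replicate 5 was also highest for the enterocyte, Paneth cell and stem lists. Epithelial defence had a summed 5340 CPM there against a median of 5369. Replicate 5 was low by list mean for xenobiotic metabolism (5.72) and for ion and short-chain fatty acid transport (7.37).

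Among genes of small intestinal absorption, replicate 5 was the high library, in CPM, for Fgf15 (58.5), Apoa1 (324), Npc1l1 (41.1), Fabp6 (64.8), Slc6a19 (44.6), Sis (21), Abcg5 (16) and Abcg8 (17.8). Antimicrobial, secretory and neutrophil genes with replicate 5 high were Lyz1 (80.3), Reg3g (69.5), Defa24 (13.6), Nos2 (8.46), Csf3r (2.37), Muc2 (3865) and Olfm4 (50.3). Replicate 5 was also high for Aqp4 (214), Cldn2 (161), Grem1 (83.3), Krt18 (138), Ffar4 (24.8), Gusb (21.4) and Rab7 (266). It was low for the absorptive genes Cyp2c55 (1855) and Papss2 (1789).

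Replicate 6 was the low library for Nphs1 (0.202 CPM), Ddx3y (28.5), Hoxa7 (81.7) and Ahrr (1.21), and the high one for Pgk1 (77.2) and Cdc42 (423). Cdc42 and Rab7 are also among the 20 steadiest genes, so the gap there is small in size.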

How the results depend on the processing

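The number of genes detected in all 6 libraries ranged from 10341 at 5 CPM to 13884 at 0.5 CPM, around 13115. As a share of nuclear counts, the 10 and 100 most abundant nuclear genes held 5.64% and 17.1%. The 115 genes with an SD over 1 became 55 at a mean of 5 CPM, 761 with any count above 0, and 35 by the edgeR biological coefficient of variation, which shrinks towards the common value of 20.4%. That coefficient is not an SD of log2 CPM, so the 35 and the 115 are not at a like threshold. Leaving out 1 library gave 26 to 139, with 26 without replicate 5. Of the 44 lists, 9 had a range over 1, and leaving out 1 library gave 3 to 9, with 3 without replicate 5. The median SD of the most variable genes in the other libraries, 2.69, was 3.32 in the 1.0% diet alone, and that of the steadiest, 0.0893, was 0.0669 without animals numbered above 70 and 0.0582 in the 2.5% diet alone. The cause was not tested. The 25 most variable genes shared 25 with library totals or DESeq2 factors, 14 at 5 CPM and 1 without replicate 5. Of the 20 steadiest, 6 to 10 stayed when 1 library was left out. No pair of family neighbours passed with another length, added value or without replicate 5, where the smallest p is 0.0625. Of 352 list ranges recomputed, 38 moved by more than the spread. Libraries were not paired between groups, because the replicate numbers follow accession order and only 1 group was described. The paired sign-flip test pairs genes within a library. At 3 counts a library reaches 0.0672 to 0.101 CPM, and levels below that rest on fewer than 3 counts.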

Other observations

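Ribosomal protein genes, which most cells express at high levels, were low in this table (a set chosen after their values were seen). Of 79 Rpl and Rps genes, 33 had a mean under 10 TPM and 7 over 100 TPM, with a median of 13.2 TPM. Processed copies of such genes are common in the mouse genome. The part of read assignment in these values was not tested.

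Protein-coding genes with a count of 0 in all 6 control libraries numbered 3858, of which 3126 were at 0 in all 21 libraries.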
